A study of Homo sapiens with 16 samples.

Results

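The genes described here are 10 chromatin regulators: KMT2A, KMT2C, KMT2D, KDM6A, ARID1A, EP300, CREBBP, STAG2, ASXL2 and EZH2. All but EZH2, which was added to the set, are known as recurrent mutation targets in bladder cancer. All 10 were chosen by symbol from the 39007 symbols of the deposited expression table. All 10 were present and passed the filter of a mean above 1 CPM (counts scaled to the same total in each library) over all libraries, as did 13249 symbols in all. No mutation was measured, so the values are mRNA levels and say nothing of the alleles. The data are RNA-sequencing libraries of T24, an established human bladder cancer cell line, and of GRC1, a line derived from it by repeated exposure to gemcitabine, a nucleoside analog that blocks DNA synthesis. There were 16 libraries, 4 each of the parental cells (P0) and of the gemcitabine-selected cells at an early (P3), an intermediate (P7) and a late stage (P15), in which the phase number counts rounds of drug exposure and recovery. The labels give T24 and the bladder cancer origin for all 16 libraries, but that the P15 cells are T24 was not checked by genotype here, and cells of all phases were grown in the same serum-containing medium. All 3 resistant phases come from 1 derived line, so the differences between phases cannot be told apart from the particular history of that line. The titles of all 16 libraries, parental and selected, carry the code NT, which the labels do not explain, and whether gemcitabine was present when RNA was taken is not given in the sources used here. The labels do not say that the 4 libraries of a phase came from separate cultures, so the p-values measure only the spread between these libraries, which may be technical. The question of each comparison was how the cells changed from one stage of resistance to the next.

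Chromatin regulators set which stretches of DNA can be read. KMT2A and its relatives KMT2C and KMT2D put methyl groups on lysine 4 of histone H3 at promoters and enhancers, EP300 and CREBBP put acetyl groups on histones at the same sites, and KDM6A, which works inside the KMT2C and KMT2D complexes, removes the repressive methyl mark from lysine 27 of histone H3 (H3K27) that EZH2, the catalytic subunit of Polycomb repressive complex 2 (PRC2), puts there. ARID1A is the DNA-binding subunit of a SWI/SNF remodeling complex that slides nucleosomes, STAG2 is a subunit of the cohesin ring that forms DNA loops and holds sister chromatids together, and ASXL2 is a subunit of the PR-DUB complex, in which BAP1 removes ubiquitin from histone H2A. Many of these genes are lost by truncating mutations in urothelial carcinoma, and in that disease the loss of KDM6A or ARID1A has been studied together with the activity of EZH2.

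Library totals, recovered from the spacing of the lowest values, were 33.9 to 50.3 M counts, so 1 count was worth 0.0199 to 0.0295 CPM, and every regulator lay far above that. The P15 libraries stood apart from the other 12. The summed level of 11 epithelial markers was 2120 to 2190 CPM in P0, 2370 to 2510 CPM in P3, 1690 to 1840 CPM in P7 and 675 to 753 CPM in P15. Of the 6 tested markers, 5 were lower and 1 was higher at P15 than at P0. KRT7 fell from 9.90 at P0 to 3.64 at P15 on the log2(CPM + 1) scale, and KRT19 was at 6.43 at P0 and 0.02 at P15. KRT18 rose from 8.88 at P0 to 9.31 at P15, where its mean was 633 CPM. UPK1B and UPK3A, which encode plaque proteins of mature urothelium, were at or near 0 in every phase. In all, 16 genes, KRT19 among them, were at 10 CPM or more in all 12 libraries of P0, P3 and P7 and at 3 counts or fewer in every P15 library, and 4 genes showed the reverse, whereas 0 genes set P0, P3 or P7 apart from the rest in this way. Blood and endothelial marker sums were 8.50 CPM or less in every library, the fibroblast sum was at most 28.9 CPM, and the defining blood gene PTPRC was listed at 0 in P0, P3 and P7. The part of the epithelial change at P15 in the results for the regulators was not tested, and within bulk RNA fewer cells of a kind and less RNA per cell cannot be told apart.

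**Figure D1:**
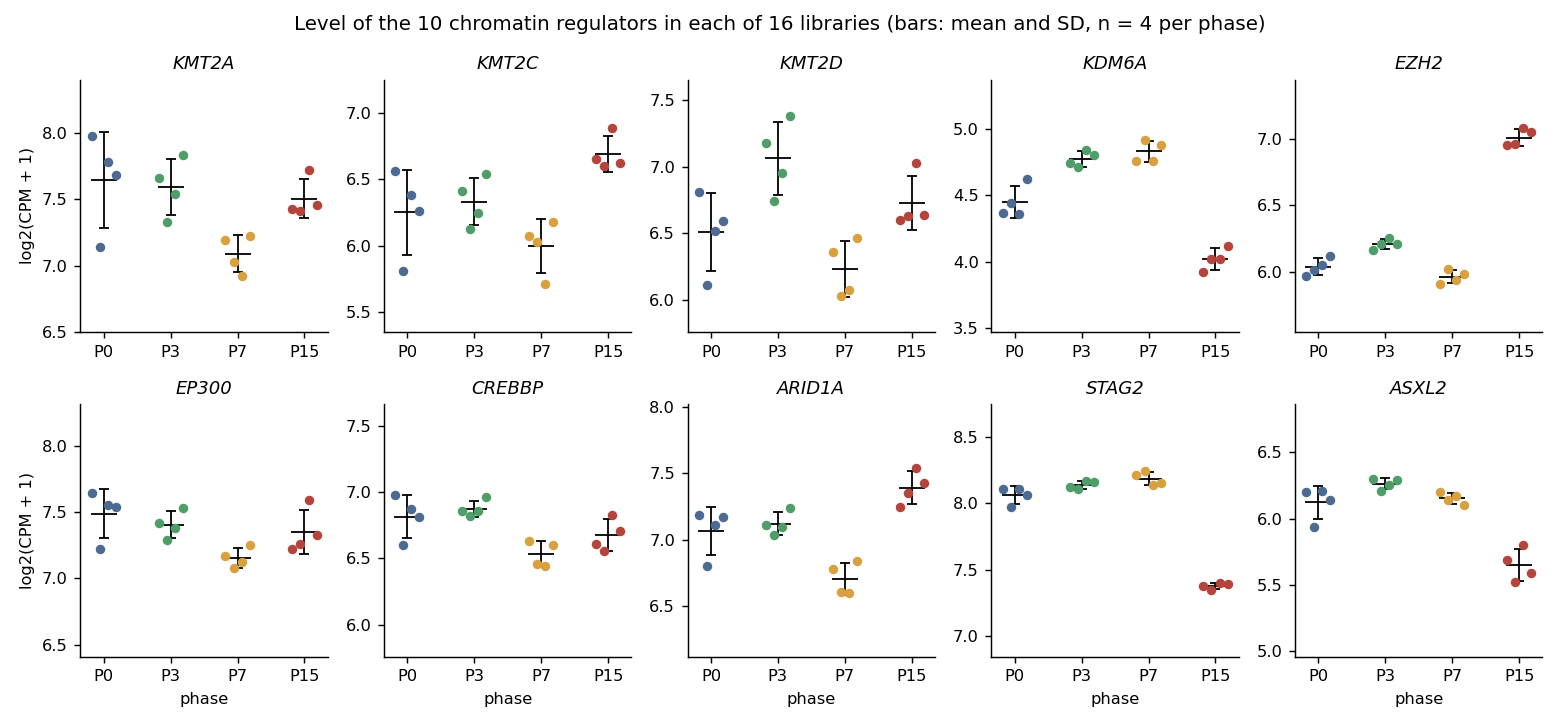
Level of each of the 10 regulators in log2(CPM + 1), 1 point per library, by phase; the horizontal bar is the mean and the vertical bar the SD of the 4 libraries, and each panel spans the same log2 range around its own middle. EZH2 at P15 sits at 6.95 to 7.08, above all 12 other libraries, while STAG2, KDM6A and ASXL2 at P15 sit below all others.

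Within the cells the regulators differed widely in abundance. Per kilobase of the canonical transcript, STAG2 stood first in the parental phase P0 at 43.1 CPM per kb ± 1.95 (SD, n = 4), EZH2 followed at 24.4 ± 1.11 and EP300 at 20.4 ± 2.48. Below it, ARID1A, KMT2A and CREBBP followed, each with a range that overlapped that of the gene before it. ASXL2, KMT2C, KMT2D and KDM6A came after a gap and again overlapped from each gene to the next, with KDM6A lowest at 3.43 ± 0.309 CPM per kb. The order at the top changed at late phase P15. There EZH2 stood first at 48.2 CPM per kb ± 2.19 (SD, n = 4), with STAG2 at 26.8 ± 0.402 and ARID1A at 19.5 ± 1.67, and the ranges of EZH2 and STAG2 did not overlap. KDM6A was again the lowest at 2.50 CPM per kb ± 0.151.

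From P0 to P3 the regulators moved little. At an adjusted p below 0.05 (limma, Benjamini-Hochberg over 13249 genes), 5 of the 10 were higher at P3, none was lower, and the other 5 were not called, beside 68.7% of all tested genes called, 31.4% higher and 37.3% lower. KMT2D alone also passed a threshold of 0.5 on the log2 scale, which 18.9% of all genes passed in either direction and 8.03% of all genes passed upward. Without replicate 4 of P3, 3 of the 10 were called in this comparison. From P3 to P7 the picture turned: 7 of the 10 were lower and none was higher, beside 58.2% of all genes called, 28.0% lower and 30.3% higher. KMT2A and KMT2D fell by at least 0.5, where 10.1% of all genes changed that much and 4.08% fell that much. KMT2A stood right at that threshold and passed it in neither fit without replicate 1 or 4 of P3, nor without replicate 2 or 3 of P7.

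From P7 to P15 all 10 were called, 7 higher and 3 lower, beside 86.4% of all genes called, 46.3% higher and 40.1% lower. By at least 0.5, 3 of the 10 were higher and 3 lower, beside 53.4% of all genes changed that much, 28.8% higher and 24.6% lower. Between P0 and P15, 3 were higher (EZH2, KMT2C and ARID1A) and 4 were lower (STAG2, KDM6A, ASXL2 and CREBBP), beside 86.2% of all genes called, 45.3% higher and 40.9% lower. EZH2 rose and STAG2 fell by at least 0.5, beside 51.0% of all genes changed that much, 26.7% higher and 24.3% lower.

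The median change of the 10 was 0.08 from P0 to P3, −0.29 from P3 to P7, 0.31 from P7 to P15 and −0.14 from P0 to P15 on the log2 scale. Over all tested genes it was −0.02, 0.01, 0.06 and 0.04 in the same order. The phases follow each other in this line, and each of P3, P7 and P15 enters more than 1 of these comparisons, so the comparisons share libraries and are not independent. The groups of 4 libraries did not overlap for 2, 7, 8 and 6 of the 10 regulators, beside 60.1, 51.9, 80.8 and 79.7% of all tested genes. The regulators were thus called about as often as the other genes at P15, and their non-overlapping share stood furthest below that of all genes from P0 to P3.

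**Figure D2:**
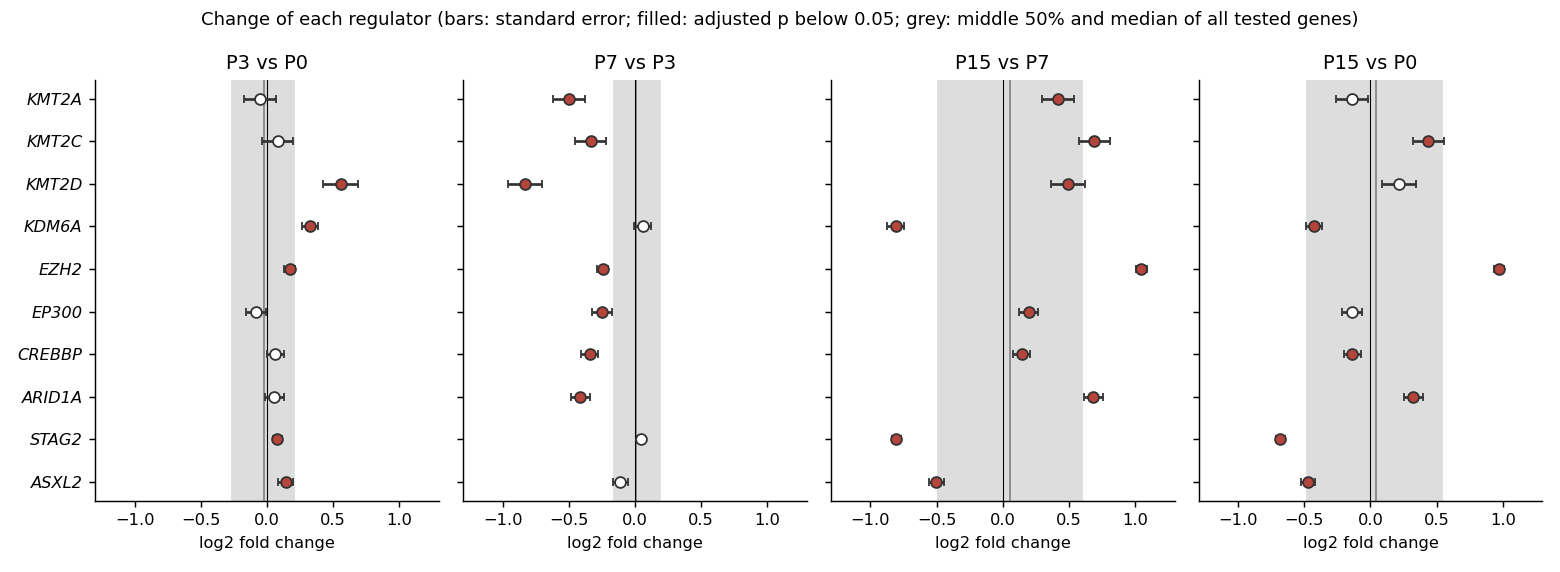
Log2 fold change of each regulator in the 4 comparisons, with the limma standard error; filled points have an adjusted p below 0.05, and the grey band spans the middle 50% of all 13249 tested genes, with a grey line at their median. Of the 10 regulators, 7 lie left of 0 as filled points at P7 against P3, and EZH2 lies furthest right at P15.

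EZH2, which writes the repressive H3K27 methyl mark, showed the largest change of the 10. Its level was 5.97, 6.01, 6.05 and 6.12 in the P0 libraries, 6.16, 6.21, 6.25 and 6.21 at P3, 5.91, 6.02, 5.94 and 5.98 at P7, and 6.95, 6.96, 7.08 and 7.05 at P15. Every P15 library lay above every library of the other phases, and the P3 libraries lay just above all those of P0 and P7. EZH2 rose by 0.17 ± 0.04 (log2, SE) from P0 to P3 with an adjusted p of 5.6e-04 and fell by 0.24 ± 0.04 from P3 to P7 with an adjusted p of 1.2e-05 (limma, Benjamini-Hochberg). It then rose by 1.05 ± 0.04 from P7 to P15 with an adjusted p of 6.5e-18 (limma), and at P15 it was 1.96-fold higher than at P0, a change higher than that of 87.4% of all tested genes. No left-out library and no other setting tried took away any of these 4 calls. Reads from part of the EZH2 transcript may be misplaced, since 6 of 52 windows of 100 bases (11.5%) matched a copy on chromosome 21 at 95 bases or more. The effect on its counts was not measured.

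The EZH2 gene lies on chromosome 7 from 148807257 to 148884321 on the minus strand of GRCh38 (GENCODE 44), and its canonical transcript of 2.65 kb has 20 exons. Its promoter is shown because the letters of an E2F site, bound by the cell cycle factors of the E2F family, stood at its start, at base 2 counted from the RefSeq transcription start as base 1. The capitals mark them in RefSeq sequence of GRCh38.p14, chr7:148884282-148884441, minus strand, 150 bases before the start and 10 after it.
EZH2: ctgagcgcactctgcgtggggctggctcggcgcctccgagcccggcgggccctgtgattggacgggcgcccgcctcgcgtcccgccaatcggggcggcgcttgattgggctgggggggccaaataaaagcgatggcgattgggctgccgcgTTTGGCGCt
The letters searched were TTTCCCGC, TTTGGCGC, TTTGCCGC and TTTCGCGC on both strands, and 3.31% of 35116 RefSeq promoter windows, from 250 bases before the start to 50 after it, held at least 1 of them. Among the 10 regulators the EZH2 and STAG2 windows did. At P15 against P0, EZH2 was higher and STAG2 was lower. The letters CCAAT, a common promoter element, were found in the windows of ASXL2, EZH2, KDM6A and STAG2, and in 34.6% of all windows. None of the letter strings contains another. E2F1, picked after its values were seen, fell by 1.36 ± 0.04 (log2, SE) from P0 to P15 with an adjusted p of 1.7e-20 (limma). E2F2, picked in the same way, differed by −0.07 with an adjusted p of 0.39 (limma). The part of these letters or of E2F factors in the changes of EZH2 and STAG2 was not tested.

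The rise of EZH2 at P15 was not shared by EED, SUZ12 and RBBP4, other core subunits of PRC2. EED, the subunit that reads the H3K27 methyl mark, was at 5.36, 5.46, 5.48 and 5.52 in the P0 libraries and at 4.99, 4.88, 5.06 and 4.93 in the P15 libraries, which were all lower. SUZ12, which holds the complex together, was at 6.88, 6.85, 6.89 and 6.85 at P0 and at 6.48, 6.33, 6.58 and 6.46 at P15, again without overlap, and was picked after its values were seen. EED fell by 0.49, SUZ12 by 0.41 and the histone-binding subunit RBBP4 by 0.72 on the log2 scale, with adjusted p of 5.5e-10, 2.2e-09 and 5.8e-17 (limma, Benjamini-Hochberg). RBBP7, another PRC2 gene picked after its values were seen, did not fall in this way. Its mean was 7.945 at P0 and 7.912 at P15, and the libraries of the 2 phases overlapped. Of the accessory subunits, 3 rose. JARID2, which helps to recruit PRC2, was at 5.16, 5.11, 5.26 and 5.12 at P0 and at 6.58, 6.65, 6.73 and 6.60 at P15, a 2.79-fold difference, and the Polycomb-like proteins MTF2 and PHF1, picked after their values were seen, were 2.19-fold and 1.85-fold higher at P15. The accessory subunits AEBP2 and PHF19 differed by −0.04 and 0.06, with adjusted p of 0.43 and 0.089 (limma). Of the 11 tested genes of the PRC2 and H3K27 demethylase list, which leaves out EZH2 and KDM6A, 5 were higher at P15 than at P0, 3 were lower and 3 were not called, with a median of 0.06 beside 0.04 over all genes.

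KDM6A, the demethylase that takes the H3K27 methyl mark off, followed a different course from EZH2. Its level was 4.37, 4.44, 4.36 and 4.62 at P0, 4.74, 4.71, 4.84 and 4.80 at P3, 4.76, 4.92, 4.76 and 4.88 at P7, and 3.92, 4.02, 4.02 and 4.12 at P15. The P3 and P7 libraries all lay above the P0 libraries, and the P15 libraries all lay below them. KDM6A rose by 0.33 ± 0.06 (log2, SE) from P0 to P3 with an adjusted p of 5.7e-05, was at 0.06 from P3 to P7 with an adjusted p of 0.44, and fell by 0.81 ± 0.06 from P7 to P15 with an adjusted p of 8.0e-12 (limma, Benjamini-Hochberg). At P15 it was 25.7% lower than at P0, with an adjusted p of 6.8e-07 (limma). A copy on chromosome Y matched 3 of 120 windows of its transcript (2.50%). The related demethylase KDM6B was at 4.31, 4.38, 4.29 and 4.38 at P0 and at 6.60, 6.68, 6.68 and 6.63 at P15, a 4.95-fold rise with an adjusted p of 2.6e-23 (limma). Within the same libraries the log2 difference of KDM6A minus EZH2 was thus −2.99 at P15 and −1.59 at P0, a change of −1.40. Its exact permutation p was 0.0286, the smallest that 4 against 4 libraries allow, and 0.0457 after adjustment over 8 gene pairs. Every P15 library lay below every P0 library for KDM6A and above for EZH2. The p of this pair was thereby fixed and adds nothing to the changes of the 2 genes. For this pair and the other 4 pairs called below, the adjusted p rose to between 0.057 and 0.091 without replicate 2, 3 or 4 of P15. For EZH2 and its paralog EZH1, which can take its place in PRC2, the log2 difference rose from 1.06 to 1.71, with the same exact permutation p of 0.0286 and 0.0457 after adjustment.

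**Figure D3:**
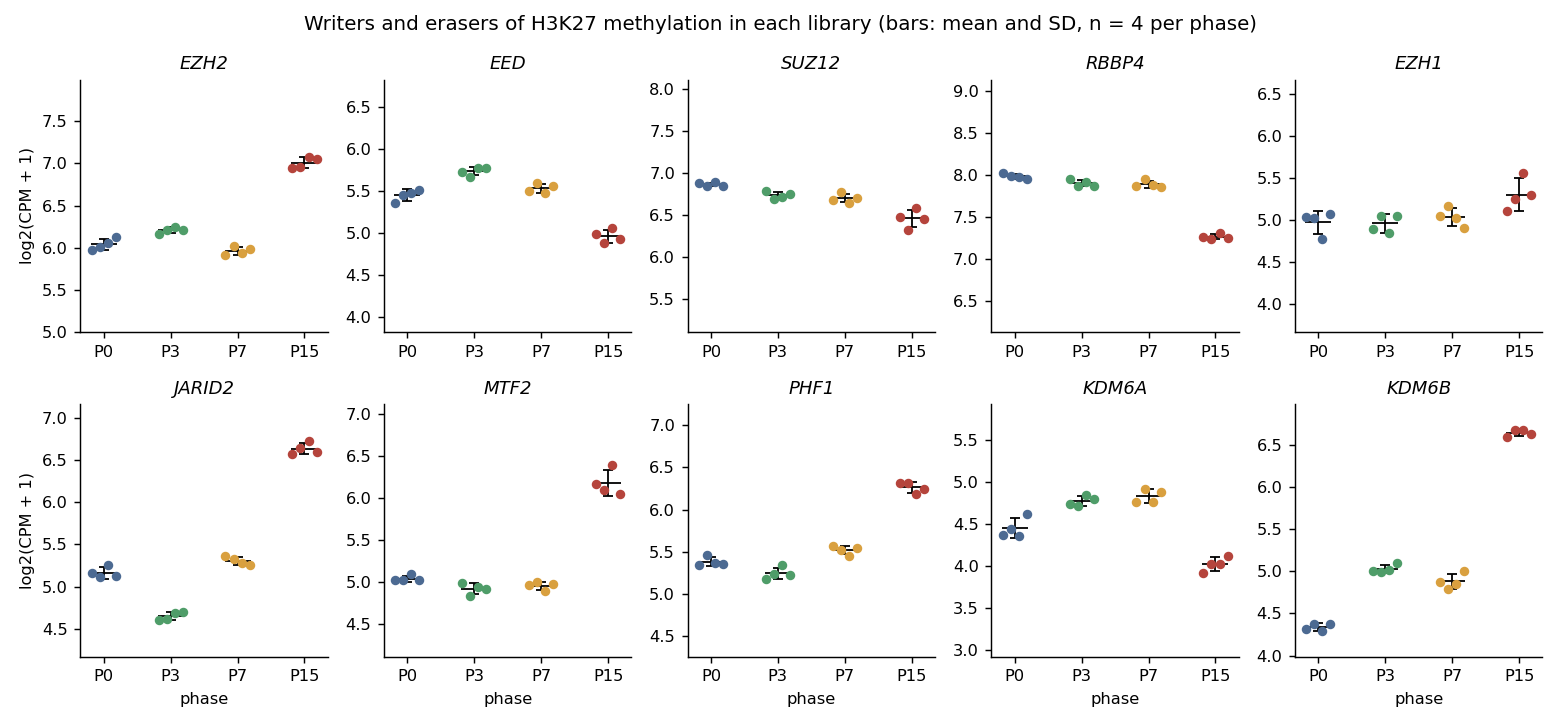
Level in log2(CPM + 1) of EZH2, other PRC2 genes and the H3K27 demethylases KDM6A and KDM6B, 1 point per library, by phase, with the mean and SD of 4 libraries; all panels span the same log2 range. At P15 the points of EZH2, JARID2, MTF2, PHF1 and KDM6B lie above those of P0, and the points of EED, SUZ12, RBBP4 and KDM6A lie below them.

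KMT2D was the only 1 of the 3 H3 lysine 4 methyltransferases among the regulators that was called between P0 and P3. In the same comparison KMT2B rose by 0.15 with an adjusted p of 0.012 and SETD1A, picked after its values were seen, fell by 0.35 with an adjusted p of 8.4e-08 (limma). KMT2D was at 6.81, 6.11, 6.52 and 6.59 in the P0 libraries, 7.18, 6.74, 6.95 and 7.38 at P3, 6.36, 6.03, 6.07 and 6.46 at P7, and 6.60, 6.63, 7.03 and 6.64 at P15. P3 had the highest mean, the lowest of its libraries lay just under the highest of P0, and replicate 2 of P0 stood below the other P0 libraries. KMT2D rose by 0.56 ± 0.13 (log2, SE) from P0 to P3 with an adjusted p of 6.2e-04, fell by 0.83 ± 0.13 from P3 to P7 with an adjusted p of 8.0e-06, and rose by 0.49 ± 0.13 from P7 to P15 with an adjusted p of 0.0012 (limma, Benjamini-Hochberg). The fall at P7 was among the strongest of all genes in that comparison, at the 1.24th percentile. P15 differed from P0 by 0.22, with an adjusted p of 0.12, which became 0.029 without replicate 1 of P0 (limma). Without replicate 2 of P0, or without replicate 4 of P3, the rise from P0 to P3 stayed called but was below 0.5.

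KMT2C was at 6.56, 5.81, 6.38 and 6.26 at P0, 6.41, 6.13, 6.25 and 6.54 at P3, 6.07, 6.03, 5.71 and 6.18 at P7, and 6.65, 6.60, 6.89 and 6.62 at P15. The P15 libraries all lay above those of the other phases, and the other phases overlapped each other. KMT2C rose by 0.69 ± 0.12 (log2, SE) from P7 to P15 with an adjusted p of 6.1e-06, and by 0.44 ± 0.12 from P0 to P15 with an adjusted p of 0.0012 (limma). Its fall from P3 to P7, by 0.34 ± 0.12 with an adjusted p of 0.016, was lost without replicate 4 of P3 at an adjusted p of 0.069, and without replicate 3 of P7 at 0.082 (limma). Copies of its exons lie elsewhere in the genome: 25 of 336 windows of the KMT2C transcript (7.44%) matched chromosomes 1, 2, 13, 21 or 22. Reads from these parts may be misplaced, and the effect on its counts was not measured.

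KMT2A, the founding member of the family and a frequent fusion partner in leukemia, was at 7.98, 7.14, 7.78 and 7.68 at P0, 7.66, 7.33, 7.54 and 7.83 at P3, 7.19, 7.03, 6.92 and 7.22 at P7, and 7.43, 7.41, 7.72 and 7.46 at P15. The P7 libraries were the lowest apart from replicate 2 of P0, which lay 0.51 below its phase mean. KMT2A fell by 0.50 ± 0.12 (log2, SE) from P3 to P7 with an adjusted p of 0.0011 and rose by 0.41 ± 0.12 from P7 to P15 with an adjusted p of 0.0027 (limma). P15 differed from P0 by −0.14 with an adjusted p of 0.28, and by −0.31 with an adjusted p of 0.0027 once replicate 2 of P0 was left out (limma). P3 differed from P0 by −0.06 with an adjusted p of 0.70, and without that library by −0.22 with an adjusted p of 0.031.

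Its paralog KMT2B was at 5.79, 5.63, 5.70 and 5.65 at P0 and at 6.22, 6.24, 6.38 and 6.16 at P15, where every library was higher. The log2 difference of KMT2A and KMT2B therefore fell from 1.95 to 1.25, with an exact permutation p of 0.0286 and 0.0457 after adjustment over 8 pairs, or 0.076 without replicate 1 of P15. KMT2C and KMT2D differed by −0.26 at P0 and −0.04 at P15 (KMT2C minus KMT2D), a change of 0.22 with an exact permutation p of 0.0571 and 0.0762 after adjustment, or 0.038 without replicate 3 of P0. Of the 15 other genes of the KMT2 complexes, 3 were higher at P15 than at P0, 8 were lower and 4 were not called, with a median of −0.11. MEN1, which encodes menin, the partner that tethers KMT2A and KMT2B, fell by 0.91, and HCFC1 by 0.65, whereas KMT2B rose by 0.56 and NCOA6, a subunit of the KMT2C and KMT2D complexes, by 0.38 on the log2 scale.

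The KMT2D and KDM6A promoters are shown because both genes rose from P0 to P3 and both windows held the E-box letters CACGTG, which are bound by factors such as MYC and USF. The capitals mark these letters, whose first base lay 121 bases before the start of KMT2D and 95 bases before that of KDM6A. The sequences are the 150 bases before each RefSeq start in GRCh38.p14, chr12:49060795-49060944 on the minus strand for KMT2D and chrX:44873038-44873187 on the plus strand for KDM6A.
KMT2D: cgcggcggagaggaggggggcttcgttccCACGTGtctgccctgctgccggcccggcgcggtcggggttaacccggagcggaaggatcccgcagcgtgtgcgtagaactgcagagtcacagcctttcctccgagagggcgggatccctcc
KDM6A: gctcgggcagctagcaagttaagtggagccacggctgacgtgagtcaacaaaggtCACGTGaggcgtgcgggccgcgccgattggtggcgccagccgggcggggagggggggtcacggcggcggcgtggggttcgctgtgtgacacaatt
These letters occur in 7.26% of all promoter windows, and the windows of the other 8 regulators held none. Among those 8, EZH2, STAG2 and ASXL2 were also called higher at P3 than at P0. From P7 to P15 KMT2D rose by 0.49 and KDM6A fell by 0.81. A link between the letters and these changes was not tested. KMT2D lies on chromosome 12 from 49018975 to 49060794 on the minus strand, with 55 exons and a canonical transcript of 20.6 kb, the longest of the 10. KDM6A lies on chromosome X from 44873188 to 45112779 on the plus strand, with 30 exons.

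The histone acetyltransferases EP300 and CREBBP, a close pair of paralogs, changed by at most 0.34 in any of the 4 comparisons. EP300 was at 7.64, 7.22, 7.55 and 7.54 at P0, 7.42, 7.29, 7.38 and 7.53 at P3, 7.17, 7.08, 7.12 and 7.25 at P7, and 7.22, 7.26, 7.59 and 7.33 at P15. CREBBP was at 6.98, 6.60, 6.87 and 6.81 at P0, 6.86, 6.82, 6.86 and 6.96 at P3, 6.63, 6.46, 6.44 and 6.60 at P7, and 6.61, 6.56, 6.83 and 6.71 at P15. For both genes the P7 libraries lay below all P3 libraries, and the P15 libraries overlapped those of P0 and of P7. From P3 to P7 EP300 fell by 0.25 ± 0.07 (log2, SE) with an adjusted p of 0.0062, and CREBBP fell by 0.34 ± 0.06 with an adjusted p of 7.7e-05 (limma). Both were higher at P15 than at P7, EP300 by 0.20 with an adjusted p of 0.019 and CREBBP by 0.14 with an adjusted p of 0.039 (limma). These 2 calls rest on single libraries: without replicate 3 of P15 the adjusted p was 0.12 for EP300 and 0.17 for CREBBP, without replicate 2 of P7 it was 0.058 and 0.11, and for CREBBP it was 0.12 without replicate 3 of P7 and 0.082 without replicate 4 of P15.

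Between P0 and P15 both genes differed by −0.14, with an adjusted p of 0.089 for EP300 and 0.049 for CREBBP (limma). The CREBBP call was lost when 1 of 6 libraries was left out, at adjusted p of 0.23, 0.12 and 0.075 without replicates 1, 3 and 4 of P0 and of 0.13, 0.18 and 0.056 without replicates 1, 2 and 4 of P15. EP300 became a call at −0.23 with an adjusted p of 0.0019 without replicate 2 of P0, and at −0.22 with an adjusted p of 0.0052 without replicate 3 of P15. From P0 to P3, EP300 was at −0.08 with an adjusted p of 0.34, and at −0.17 with an adjusted p of 0.019 without replicate 2 of P0. The log2 difference of the paralogs (EP300 minus CREBBP) was 0.67 at P0, 0.53 at P3, 0.62 at P7 and 0.67 at P15, with an exact permutation p of 1.0 for P15 against P0. Its P3 libraries, at 0.47 to 0.57, lay below its P0 libraries, at 0.62 to 0.73, a difference that was not tested. Of 9 other histone acetyltransferase genes, 2 were higher at P15 than at P0, 5 were lower and 2 were not called, with a median of −0.43. KAT2A fell by 0.87 and HAT1 by 0.49, while KAT8, which acetylates lysine 16 of histone H4, rose by 1.11 and KAT7 by 0.46. Among the opposing class I deacetylases, HDAC1 fell by 1.33, from 8.45 ± 0.04 to 7.11 ± 0.05 (SD, n = 4), and HDAC3 fell by 0.20.

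ARID1A, on chromosome 1 from 26693236 to 26782104 on the plus strand, was at 7.19, 6.80, 7.11 and 7.17 at P0, 7.11, 7.04, 7.10 and 7.24 at P3, 6.78, 6.61, 6.60 and 6.84 at P7, and 7.25, 7.35, 7.54 and 7.43 at P15. All P15 libraries lay above all others, and the P7 libraries were the lowest apart from replicate 2 of P0. ARID1A fell by 0.41 ± 0.07 (log2, SE) from P3 to P7 with an adjusted p of 3.0e-05 and rose by 0.69 ± 0.07 from P7 to P15 with an adjusted p of 3.6e-09 (limma, Benjamini-Hochberg). At P15 it was 1.25-fold higher than at P0, with an adjusted p of 2.1e-04 (limma). ARID1B, which replaces ARID1A in the same complex, also rose from P0 to P15, by 0.16. The log2 difference of the pair was 0.71 at P0 and 0.89 at P15, with an exact permutation p of 0.0857 and 0.098 after adjustment, or 0.046 without replicate 1 of P15.

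The catalytic subunits of SWI/SNF went the other way from ARID1A. SMARCA4, picked after its values were seen, was at 7.58, 7.46, 7.52 and 7.51 at P0 and at 6.38, 6.41, 6.46 and 6.39 at P15, all lower, and SMARCA2 fell by 1.43. Of the 25 other SWI/SNF genes, 11 were higher at P15 than at P0, 10 were lower and 4 were not called, with a median of 0.00. DPF3, a histone reader of the neural and muscle forms of the complex, fell by 1.93, whereas BCL7A rose by 1.55 and GLTSCR1L, now named BICRAL, by 0.92.

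STAG2 varied least of the 10 within phases and changed little until P15. It was at 8.11, 7.97, 8.11 and 8.06 at P0, 8.12, 8.11, 8.17 and 8.16 at P3, 8.21, 8.24, 8.14 and 8.15 at P7, and 7.38, 7.35, 7.40 and 7.39 at P15. The 12 libraries before P15 lay within a narrow band and the P15 libraries lay far below it. STAG2 fell by 0.81 ± 0.03 (log2, SE) from P7 to P15 with an adjusted p of 3.3e-17 and was 37.7% lower at P15 than at P0, with an adjusted p of 1.1e-15 (limma). Its rise from P0 to P3, by 0.08 with an adjusted p of 0.04, was lost at adjusted p of 0.18, 0.07, 0.11 and 0.092 without replicates 2 or 4 of P0 or replicates 3 or 4 of P3 (limma).

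STAG1, which replaces STAG2 in other cohesin rings, was at 6.03, 5.86, 6.05 and 6.01 at P0 and at 5.05, 5.08, 5.18 and 5.03 at P15. It fell by 0.90, more than STAG2, so that the log2 difference of the pair rose from 2.07 to 2.29, with an exact permutation p of 0.0286 and 0.0457 after adjustment. The ring subunits SMC1A and SMC3, picked after their values were seen, fell by 0.82 and 0.51, while RAD21, picked in the same way, rose by 0.21. Of 16 tested genes of cohesin and its regulators, 6 were higher, 9 were lower and 1 was not called, with a median of −0.26. The cohesin acetyltransferases split, ESCO2 falling by 1.36 and ESCO1 rising by 1.20, and SGO1, which protects cohesin at centromeres, rose by 0.63. STAG2 lies on chromosome X from 123960212 to 124422664, and the 2 other tested genes within 1 Mb of it were both lower at P15 than at P0, with a median of −0.84 beside −0.05 for 392 tested genes of the chromosome.

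ASXL2, on chromosome 2 from 25733753 to 25878487 on the minus strand, was at 6.20, 5.94, 6.21 and 6.14 at P0, 6.30, 6.21, 6.25 and 6.29 at P3, 6.20, 6.14, 6.17 and 6.10 at P7, and 5.69, 5.52, 5.80 and 5.59 at P15. The P15 libraries lay below all others, and the other phases were close together. ASXL2 fell by 0.50 ± 0.06 (log2, SE) from P7 to P15 with an adjusted p of 8.6e-09 and was 27.9% lower at P15 than at P0, with an adjusted p of 2.6e-08 (limma). Its rise from P0 to P3, by 0.14 with an adjusted p of 0.029, was lost without replicate 2 of P0 at an adjusted p of 0.16, and at 0.072 and 0.065 without replicates 1 and 4 of P3 (limma). Its paralog ASXL1 fell by 0.15 from P0 to P15, and the log2 difference of the pair (ASXL2 minus ASXL1) went from −1.55 to −1.88, with an exact permutation p of 0.0286 and 0.0457 after adjustment. BAP1, the catalytic subunit of PR-DUB, also picked after its values were seen, was at 6.45 at P0 and 6.42 at P15, with an adjusted p of 0.49 (limma). Of 8 tested PR-DUB genes, 5 were higher at P15 than at P0, 2 were lower and 1 was not called. The histone demethylase KDM1B rose by 1.42 and the sugar transferase OGT by 0.47, while the transcription factor FOXK1 fell by 0.18. In PRC1, the complex that places the ubiquitin mark PR-DUB takes off, 9 of 19 genes were higher and 9 were lower, with PHC1 up by 1.26, PCGF1 up by 1.10, CBX2 down by a log2 change of −0.86 and KDM2B down by one of −0.76.

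**Figure D4:**
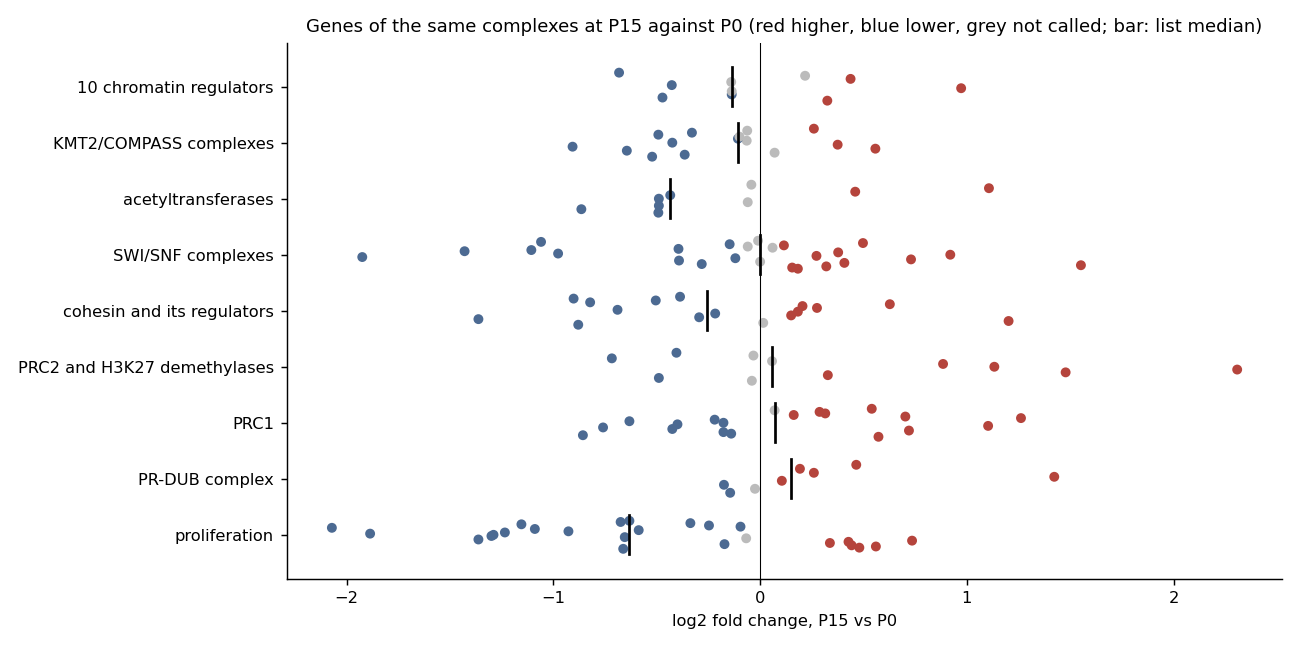
Log2 fold change at P15 against P0 of the 10 regulators and of other genes of their complexes, 1 point per tested gene; red points are called higher, blue points called lower and grey points not called at an adjusted p below 0.05, and the bar is the median of each list. Every complex list holds genes called in both directions, and the list of proliferation genes has the lowest median, −0.63.

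A list of 25 proliferation genes changed between the phases as well. At P7, 0 of them were higher and 21 lower than at P3, the step at which 7 of the 10 regulators fell. From P7 to P15, 8 were higher and 17 lower, while 7 of the 10 regulators were higher and 3 lower. At P15, 6 were higher and 18 lower than at P0, the comparison in which EZH2 rose. The summed level of the list was 6330 to 6580 CPM at P3, 5120 to 5210 CPM at P7 and 3910 to 4180 CPM at P15. PCNA and MCM4, which act at the replication fork, fell by 2.07 and 1.89 from P0 to P15, whereas the mitotic kinases CDK1 and BUB1 rose by 0.73 and 0.56 on the log2 scale. The part of proliferation in the changes of the regulators was not tested.

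The spread between libraries of a phase was not the same for all 10 regulators, and much of it followed a shared pattern. KMT2A, KMT2C, KMT2D, ARID1A, EP300 and CREBBP deviated from their phase means together. Over the 16 libraries, each taken relative to its own phase, their 15 pairwise Pearson correlations were 0.85 to 0.97. ASXL2 correlated with them at 0.59 to 0.76 and STAG2 at 0.46 to 0.71, EZH2 correlated with them at 0.04 to 0.30 and KDM6A at −0.04 to 0.23. EZH2 and KDM6A correlated with each other at 0.76. All 6, and ASXL2 and STAG2 too, were lowest in replicate 2 of P0, by −0.51 for KMT2A, −0.44 for KMT2C, −0.40 for KMT2D, −0.18 for ASXL2 and −0.09 for STAG2. These correlations are descriptions over libraries whose totals ranged from 33.9 to 50.3 M counts. The sample sheet numbers in the titles repeat between phases, and the labels do not say which libraries were prepared or sequenced together.

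The 6 genes have long transcripts, from 8.60 kb for ARID1A to 20.6 kb for KMT2D, while those of EZH2, KDM6A and STAG2 are 2.65, 6.09 and 6.18 kb. The transcript of ASXL2, which is not among the 6, is 12.8 kb. The 6 are the regulators with the largest spread between libraries of a phase, so this grouping was drawn from the same deviations. Across the 252 other tested genes with transcripts over 12 kb, the median deviation was −0.15 in replicate 2 of P0, 0.09 in replicate 1 of P0, −0.08 in replicate 2 of P3, 0.08 in replicate 4 of P3 and 0.12 in replicate 3 of P15. This median correlated over the 16 libraries with the deviations of KMT2A at 0.946, of KMT2C at 0.945 and of EP300 at 0.918, with those of ASXL2 at 0.797 and of STAG2 at 0.741, and with those of EZH2 at 0.258. The spread of KMT2D between libraries of a phase was larger than that of 99.1% of all tested genes, and that of STAG2 larger than that of 10.5%. The same 252 genes also moved between phases, with medians of 0.09 from P0 to P3, −0.13 from P3 to P7, 0.21 from P7 to P15 and 0.14 from P0 to P15, the first 3 in the directions in which KMT2D was called. The labels describe reverse transcription with poly(dT) primers, and the part of RNA length or integrity in these values was not tested.

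With the trend of each library on transcript length removed, an alternative chosen after seeing the data, no call of the 10 regulators was lost. KMT2D rose by 0.47 from P0 to P3 with an adjusted p of 2.4e-05 and fell by 0.68 from P3 to P7 with an adjusted p of 1.6e-07 (limma). KMT2A then fell by 0.38 from P3 to P7 with an adjusted p of 1.9e-04 and KMT2C by 0.22 with an adjusted p of 0.017 (limma). EZH2 at P15 was 0.95 above P0 and STAG2 0.64 below it on the log2 scale in that fit. The difference of KMT2D between P15 and P0 became a call, at 0.18 with an adjusted p of 0.048 (limma).

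**Figure D5:**
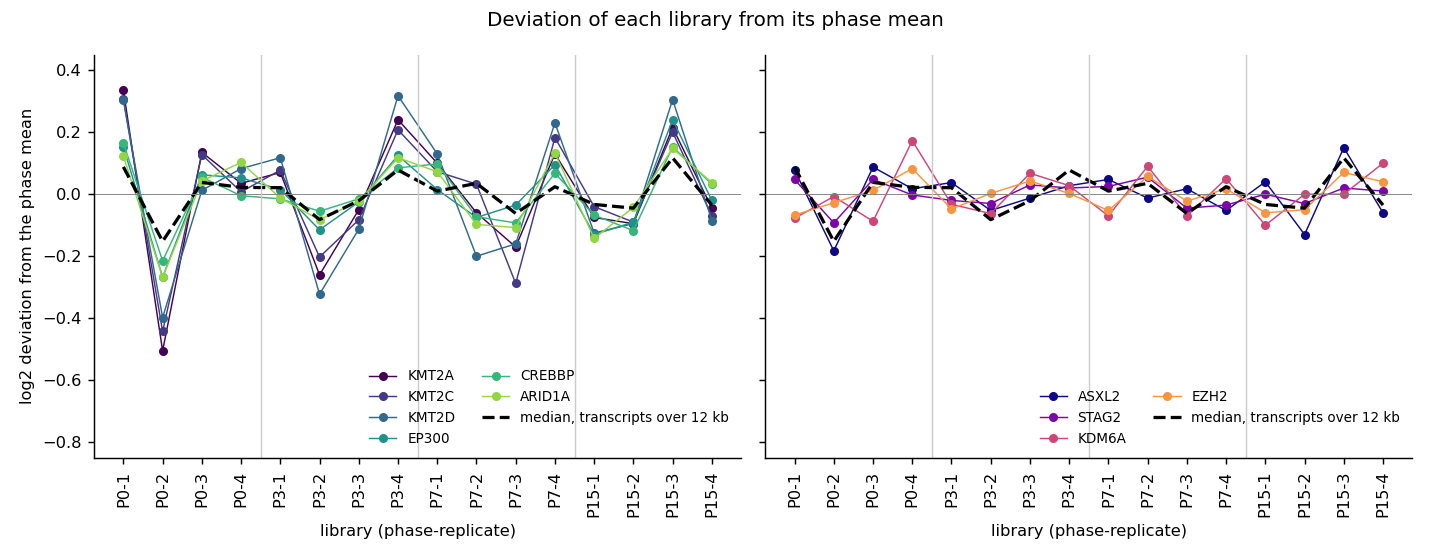
Deviation of each library from the mean of its phase on the log2 scale for KMT2A, KMT2C, KMT2D, EP300, CREBBP and ARID1A (left) and for ASXL2, STAG2, KDM6A and EZH2 (right), with the median of 252 other genes with transcripts over 12 kb as a dashed line. The 6 genes on the left dip together in replicate 2 of P0, by up to 0.51 for KMT2A, and the dashed line dips there by 0.15.

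By chromosome, EZH2 and KMT2C are near each other on chromosome 7, 3.25 Mb apart, and both rose from P0 to P15. Within 1 Mb of EZH2, 11 of 16 other tested genes were higher at P15 than at P0 and 2 were lower, with a median of 0.23, and within 1 Mb of KMT2C, 7 of 11 were higher and 2 lower, with a median of 0.22. The median of 565 tested genes of chromosome 7 was 0.09 in this comparison, and over all tested genes 45.3% were higher and 40.9% lower. Near KMT2D, which was not called, 21 of 31 tested genes within 1 Mb were higher and 7 lower. Their median was 0.49, beside 0.20 for chromosome 12. ASXL2 went against its neighbours, since 10 of 16 tested genes within 1 Mb were higher and 5 lower, with a median of 0.19. KMT2A lies on chromosome 11, where the median of 692 tested genes was −0.54, and its own difference between P15 and P0 was −0.14. DNA copy number was not measured, and its part was not tested.

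The genes most like each regulator over the 16 libraries were chosen by Pearson correlation among all tested genes. These correlations mix the differences between phases with the spread within them and are given as a description. EZH2 was most like JAG1, at 0.993, and ACP7, at 0.992. STAG2 was most like ZDHHC20 and SKP2, both at 0.995, and KDM6A was most like TTLL11, at 0.988, and PAG1, at 0.976. ASXL2 was most like POLD3, at 0.982, and RAPGEF2, at 0.981. For these 4 regulators 898 to 2199 genes passed a correlation of 0.9, since many genes separate P15 from the other phases. For the other 6 regulators 2 to 63 genes did. KMT2A and EP300 were both most like CEP350, at 0.958 and 0.925, with MAML1 next for KMT2A, at 0.923, and CENPF next for EP300, at 0.917. KMT2C was most like DYNC1H1, at 0.958, and TRIO, at 0.953. KMT2D was most like SMG1, at 0.969, and HECTD4, at 0.966. ARID1A was most like AKAP13, at 0.963, and CAD, at 0.960, and CREBBP correlated with CBX5 at 0.927.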

How the data were processed

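RNA-sequencing values of 16 libraries were used, 4 each at P0, P3, P7 and P15, grouped by the phase in the labels. Per the paper's methods and the labels, the authors aligned reads to GRCh38 with STAR 2.6.1a, counted them on genes with featureCounts and scaled the counts to CPM. The deposited table gives log2(CPM + 1) to 2 decimals for 39007 symbols, of which 27 are dates. The quantile normalization and median centring of the methods are not visible in these values, since each library sums to 999894 to 1000095 CPM. The strand setting and the handling of reads with several matches are not given in the sources used here. A fold change on the log2(CPM + 1) scale understates the change of low genes. Counts could be recovered from the lowest values only, so no count test was run.

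Phases were compared with limma 3.58.1 (R 4.3.3), 1 coefficient per phase over all 16 libraries, a variance trend and p-values adjusted by Benjamini-Hochberg across 13249 genes whose mean exceeded 1 CPM. A gene was called at an adjusted p below 0.05. On simulated data for P15 against P0 over 13249 genes the procedure recovered 92 of 100 genes changed by 0.5 and 100 of 100 changed by 1 on the log2 scale, with 6 false calls. The simulated noise was drawn separately for each gene, and few genes were changed. In the real data 86.2% of genes were called in this comparison and some genes deviated together, so these rates need not hold for them. Gene pairs were compared by exact two-sided permutation of the log2 difference per library, adjusted over 8 pairs. Named genes are the 10 regulators, their paired genes, the 2 highest and 2 lowest called genes of each list at P15 against P0, and the 2 most correlated genes. Some genes that this rule names are not reported here. E2F1, E2F2, SUZ12, RBBP7, MTF2, PHF1, AEBP2, PHF19, SETD1A, SMARCA4, SMC1A, SMC3, RAD21 and BAP1 fall outside it and were chosen after their values were seen. The regulators and the lists were chosen with earlier results of these data known. Lengths and coordinates are those of the canonical transcripts of GENCODE 44 on GRCh38, which need not be the annotation used for counting; 12071 tested genes (91.1%) had a length. Windows of 100 bases every 50 bases were mapped with minimap2 2.31 to find copies. Promoter windows are those of RefSeq on GRCh38.p14, and all 10 regulators had one. Tables and figures were made with Python 3.11.15, numpy 2.4.6, pandas 2.3.3, scipy 1.17.1 and matplotlib 3.10.9.

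The settings varied were the filter, the pseudocount (0.1 and 5), quantile normalization, the same median in each library, a replicate block by either of the label numbers, no variance trend, the phases of a comparison alone, each library left out in turn, and, chosen after seeing the data, removal of length and GC trends.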

Additional observations from a re-analysis of the deposited data

Results flagged for a closer look

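Among the 4 libraries of a phase, a library was taken as standing apart when its gap to the nearest of the others, divided by the whole range, was above the 95% critical value of Dixon's test. This was so for 4 of 64 groups over 16 genes, the regulators and their paired genes, where chance gives about 3.2. KMT2A and KMT2D at P15 were highest in replicate 3, with ratios of 0.839 and 0.907, in the library in which genes with transcripts over 12 kb were high as well. EZH1 at P0 was lowest in replicate 3, with a ratio of 0.833, and KMT2B at P3 was highest in replicate 4, with a ratio of 0.833.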

How the results depend on the processing

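Of 320 fold changes of the regulators with 1 library left out, 288 kept their direction and their side of the threshold, and of 520 under other settings 486 did. The count called at P3 against P0 was 3 to 5 with a library left out, and 3 with no filter on low values or no variance trend. The count past 0.5 there was 0 to 1 with a library left out and 0 with the length trend removed. At P7 against P3 the counts were 6 to 7 and, past 0.5, 1 to 2 with a library left out, and the latter was 1 with a pseudocount of 5, quantile normalization, the same median in each library, or the length trend removed with or without the GC trend. The counts at P15 against P7 were 8 to 10 and 5 to 7, and at P15 against P0 6 to 9 and 2 to 3, with a library left out.

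The changes of sign were in values not called or at the threshold. With a library left out, P3 against P0 ranged from −0.223 to 0.0567 for KMT2A, −0.0675 to 0.182 for KMT2C, −0.0342 to 0.0958 for ARID1A and −0.0117 to 0.115 for CREBBP. KMT2A was at 0.0317 there without replicate 2 of P3 and replicate 1 of P15 together. CREBBP at P15 against P0 was at 0.0197 with length and GC trends removed, and ARID1A and CREBBP became called at P3 against P0 in that fit, at 0.13 and 0.10. The cause was not tested.

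Same-numbered libraries did not deviate together, with correlations of −0.15 to 0.22 by the number in the description and −0.12 to 0.22 by that in the title, so the numbers do not pair the libraries. With the replicate number as a block, STAG2 at P3 against P0 was no longer called, at an adjusted p of 0.051 or 0.054 (limma) by the 2 numberings, while KMT2D at 0.043 or 0.04 and EP300 at 0.039 or 0.034 became called at P15 against P0, and ASXL2 at 0.041 by the description number at P7 against P3. In the gene pairs the block test by exact sign flips cannot pass the threshold with 4 pairs, and the changes of −0.70 for KMT2A and KMT2B, 0.22 for STAG2 and STAG1, −0.33 for ASXL2 and ASXL1, 0.65 for EZH2 and EZH1 and −1.40 for KDM6A and EZH2 had an adjusted p of 0.2 there.

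With a library left out, the change from P0 to P15 was −0.845 to −0.618 for KMT2A and KMT2B, 0.20 to 0.24 for STAG2 and STAG1, −0.37 to −0.28 for ASXL2 and ASXL1, 0.60 to 0.72 for EZH2 and EZH1, −1.43 to −1.37 for KDM6A and EZH2, 0.19 to 0.26 for KMT2C and KMT2D and 0.12 to 0.21 for ARID1A and ARID1B. KMT2C and KMT2D passed the threshold at 0.22 with a pseudocount of 0.1, and ARID1A and ARID1B at 0.19 with quantile normalization. Without replicate 1 of P15 and replicate 2 of P3 together, whose sample sheet numbers stand apart, ARID1A and ARID1B were at 0.21 and called, and KMT2A and KMT2B at −0.68 and not called. Library totals were 33.9 M counts or more, and the part of counting error in the spread of these values was not tested.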
